A study of Mus musculus with 20 samples.

Results

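Very long 3′UTRs in the AGO2 RIP were taken as the annotated 3′UTRs of 5000 or more bases that held 10 or more counts in each of the 8 RIP-seq libraries. There were 355 of them among the 8203 3′UTRs that reached this count in each library, and among 38158 annotated 3′UTRs in all. They made up 4.33% of the tested 3′UTRs and 16.4% of their summed length. Their median length was 5909 bases, against 1312 bases over all tested 3′UTRs, and the longest, that of Zbtb20, had 23858 bases. The members were thus chosen by length and by their counts in the same libraries, and a 3′UTR low in sham could fail while high in the AGO2 precipitates, so that counts and medians over the members are descriptions.

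Adult C57BL/6 mice received AAV5 vectors in the hippocampus, with a synapsin promoter that drives expression in neurons, and RNA was recovered with an antibody against GFP. In 3 of the 4 RIP groups the mice carried GFP-AGO2 and a sponge. The sponge of the control group, miR292sp, binds miR-292, which is absent from the brain, that of miR124sp binds miR-124 and that of miR125sp binds miR-125. The sham mice had no GFP-AGO2 and gave the background of the pulldown. Each group had 2 libraries, each from the pooled lysate of 2 hippocampi, numbered 5 and 6 (miR292sp), 3 and 4 (miR124sp), 1 and 2 (miR125sp) and 7 and 8 (sham), and p-values measure the spread between these pools. A second assay sequenced the mRNA of whole hippocampi of 12 mice, with 3 GFP.miR124sp mice against 3 GFP mice and 3 GFP.miR125sp mice against 3 other GFP mice, none with GFP-AGO2.

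The 3′UTR is the stretch of an mRNA after its stop codon, where most animal miRNAs pair with their targets through the seed, bases 2 to 8 of the miRNA. AGO2 holds the miRNA in the RISC, and TNRC6 proteins, the CCR4-NOT deadenylase and the decapping enzyme carry out repression and decay. A sponge is a transgenic transcript with many binding sites that occupies a miRNA and so competes with its targets. Long 3′UTRs are common among genes of the nervous system, and a longer 3′UTR offers more room for seed matches as well as more bases on which a read can be counted.

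The seeds concerned are shown first, since the seed matches in the very long 3′UTRs are described by them. In the mature sequences from RefSeq (GRCm38.p6) the capitals mark bases 2 to 8. The pair of miR-125 forms shares the seed CCCUGAG, and let-7, another abundant family of neurons, has GAGGUAG.
mmu-miR-125a-5p: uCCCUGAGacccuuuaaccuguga
mmu-miR-125b-5p: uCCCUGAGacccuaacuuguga
mmu-let-7a-5p: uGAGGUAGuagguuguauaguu

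Opposite these seeds a 3′UTR holds CTCAGGG for miR-125 and CTACCTC for let-7, and GTGCCTT opposite the seed of miR-124. The windows below are 30 bases of the transcript strand of members whose values are given later, read from NCBIM37 (mm9), with the 7 matching bases in capitals. Plekhm3 had the most miR-124 matches of the members, 5, and a pair of them is shown; Qk, which encodes an RNA-binding protein of glial cells, Strbp, which encodes an RNA-binding protein, Kcnh7, a potassium channel gene, and Tnrc6b, which encodes a GW182 protein of the RISC, held 3, 2, 1 and 2.
Plekhm3, chr1:64836791-64836820, minus strand, bases 4802 to 4808 of the 3′UTR: tccctgtaggaGTGCCTTatagtctagtct
Plekhm3, chr1:64836632-64836661, minus strand, bases 4961 to 4967: tgcttaacctgGTGCCTTaacttcacaagt
Qk, chr17:10406407-10406436, minus strand, bases 1871 to 1877: ttaaaactactGTGCCTTaacatgtttctt
Strbp, chr2:37431120-37431149, minus strand, bases 8412 to 8418: ctatacagtgtGTGCCTTacaaaatggaat
Kcnh7, chr2:62532824-62532853, minus strand, bases 8161 to 8167: gcaaaaaccctGTGCCTTttctgattgtgg
Tnrc6b, chr15:80763960-80763989, plus strand, bases 4065 to 4071: aaaccgctttaGTGCCTTcgtacatacacc

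For miR-125 and let-7 the windows come from Ddx19b, which encodes an RNA helicase and held 4 miR-125 matches, and from Ssh1, Zc3hav1l, Tet3 and Hif1an, which were among the members most enriched with AGO2. The window of Hif1an holds a let-7 match whose last bases are also the first bases of a miR-125 match, bases 5023 to 5029.
Ddx19b, miR-125, chr8:113531733-113531762, minus strand, bases 399 to 405: gaggcagagtcCTCAGGGaggaggaggata
Ddx19b, miR-125, chr8:113527180-113527209, minus strand, bases 4952 to 4958: aactagctagcCTCAGGGagttgtccttag
Ssh1, miR-125, chr5:114388627-114388656, minus strand, bases 3603 to 3609: tgtgcacccatCTCAGGGaccaccccggaa
Zc3hav1l, let-7, chr6:38242872-38242901, minus strand, bases 132 to 138: aactgtaatacCTACCTCacaactaactga
Tet3, let-7, chr6:83315312-83315341, minus strand, bases 2706 to 2712: acatgtataacCTACCTCaaatctgtcact
Hif1an, let-7, chr19:44650656-44650685, plus strand, bases 5019 to 5025: tttgaaaatatCTACCTCagggttgctgga

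Of the 481 annotated 3′UTRs of this length, the 355 members (73.8%) reached the count in each library. Of the rest, 89 were at 0 in all 8 libraries, and 88 of these were in the annotation used here and had over 95% of their bases in another annotated 3′UTR, so that their reads could have gone to the other entry. A count under 10 in a sham library alone kept out 5: Slco5a1, Pde1c, Uhmk1, Fign and Clmn. Another 3 had 10 or more in both sham libraries and failed through an AGO2 library only. Slco5a1, a transporter gene, had 172 and 195 counts in the miR292sp libraries against 6 and 7 in sham. Just inside the length limit, Slc35b4 had 5000 bases with 1090 and 994 counts in miR292sp against 741 and 429 in sham, followed by Elovl6 with 5005 and Unc13a with 5006 bases. Just outside were Pde10a with 4992, Bcl11b with 4997 and Ralgps2 with 4998 bases.

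The members lay on distinct genes where a name was known: 352 carried a gene name in the annotation and 3 carried none. Of the 355, 69 had 7500 or more bases and 18 had 10000 or more, 345 were a single block in the genome, and 308 overlapped no exon of another gene. Other annotated 3′UTRs of the same gene existed for 223 members, but 35 had another that was tested. Bases shared with another annotated 3′UTR were absent from 155 members and above 50% in 32. Every library held 100 or more counts on 285 members, so that counting error was small for most of them.

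The library totals ranged from 4988911 to 5072501 counts in miR292sp, 2944113 to 3662634 in miR124sp, 3354678 to 3548420 in miR125sp and 2417942 to 2931054 in sham. The list of 33 astrocyte marker 3′UTRs, Slc1a2 included, summed to 18493 and 19145 CPM (counts scaled by TMM to a common library size) in miR292sp, 53909 and 49130 in miR124sp and 41067 and 42766 in miR125sp, against 70345 and 66785 in sham. The list of 40 neuron marker 3′UTRs summed to 32876 and 34228 CPM in miR292sp, 31707 and 29558 in miR124sp and 31072 and 31883 in miR125sp, against 27945 and 24532 in sham. The 27 oligodendrocyte and myelin marker 3′UTRs summed to 2471 and 2397 CPM in miR292sp, 3319 and 3203 in miR124sp and 3295 and 3265 in miR125sp, against 3456 and 3366 in sham. In miR124sp against miR292sp 7 of them were called higher and 1 lower, while 5.1% of all tested 3′UTRs were called higher and 3.46% lower. Microglial and vessel marker lists summed to at most 167 and 545 CPM in any library. In such pools, fewer cells of a type and less RNA per cell cannot be told apart, and the part that glial RNA had in the results below was not tested.

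The very long 3′UTRs took 14.9% and 14.0% of the counts of the miR292sp libraries, 18.2% and 17.0% with miR124sp and 16.7% and 16.5% with miR125sp, against 19.8% and 19.0% in sham. Their share was thus lower in each AGO2 library than in both sham libraries. Most of this lay in Slc1a2, the gene of the glutamate transporter GLT-1 of astrocytes, whose 3′UTR held more counts than any other of the series. Slc1a2 took 1.41% and 1.49% of the counts in miR292sp, 4.15% and 4.13% in miR124sp and 3.27% and 3.52% in miR125sp, against 5.99% and 5.97% in sham. Without it, the members took 13.7% and 12.7% in miR292sp, 14.6% and 13.4% in miR124sp and 13.8% and 13.4% in miR125sp, against 14.7% and 13.8% in sham. The miR292sp libraries, and by a narrow margin those of miR125sp, were still below both sham libraries, while those of miR124sp overlapped them. The next, Zbtb20, a transcriptional repressor gene of hippocampal pyramidal neurons, took 0.708% and 0.662% in miR292sp, 0.806% and 0.769% in miR124sp and 0.783% and 0.748% in miR125sp, against 0.856% and 0.784% in sham. The 10 members with the most counts held 36.9% of all member counts.

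**Figure D1:**
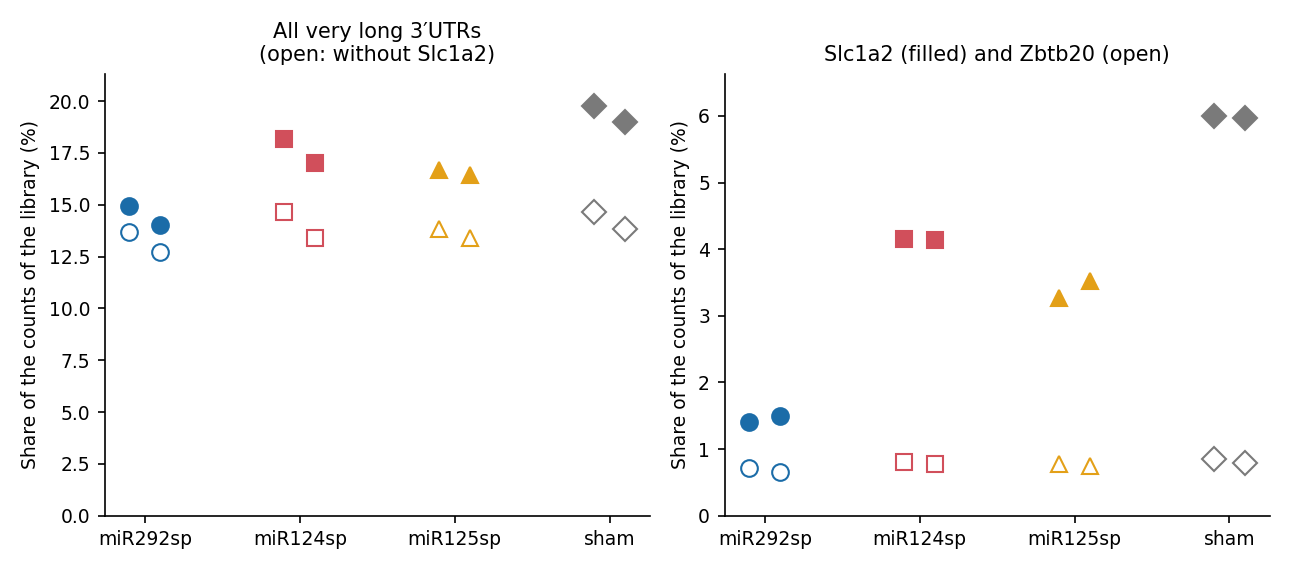
Share of the counts of each RIP-seq library, in percent, that fell on the very long 3′UTRs (left, filled; open without Slc1a2) and on Slc1a2 and Zbtb20 (right, filled and open), 1 point for each of the 2 libraries of a group. Slc1a2 lay between 1.41% and 1.49% in miR292sp and between 5.97% and 5.99% in sham, and without it the members' shares lay between 12.7% and 14.7% in all 8 libraries.

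Per length, the order of the members changed. On the scale of TMM-scaled CPM per kilobase not shared with another 3′UTR, the median member stood at 40.6 in miR292sp and 32.7 in sham, over the 344 members with enough unshared length. Slc1a2 led with 1662 in miR292sp, 4789 in miR124sp and 3867 in miR125sp, against 6497 in sham. Scn8a, the gene of the sodium channel Nav1.6, followed in miR292sp with 581, above Adcy1, the gene of a calmodulin-stimulated adenylyl cyclase, with 503, and Tmod2, the gene of a neuronal actin-capping protein, with 460. In sham these stood at 342, 167 and 323. Zbtb20 had 321 in miR292sp, 372 in miR124sp and 356 in miR125sp, against 364 in sham, above the median member in each group.

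The comparison of miR292sp with sham asked which 3′UTRs came down with GFP-AGO2 beyond the background of the pulldown. Counts were scaled on the mean of Gapdh and of the 50 3′UTRs on either side of it in the ranking by miR292sp over sham, a choice that follows the study (scaled counts). Gapdh itself, the gene of a glycolytic enzyme, had 137 and 159 scaled counts in miR292sp against 107 and 200.2 in sham. With this scaling, 280 of the 355 very long 3′UTRs rose and 5 fell at an adjusted p below 0.05 (edgeR quasi-likelihood test, Benjamini-Hochberg over all tested 3′UTRs), while 59.4% of all tested 3′UTRs rose and 0.585% fell. The members' median log2 fold change was 1.60, with quartiles of 0.79 and 2.28, against 1.26 over all tested 3′UTRs. TMM scaling, which takes most 3′UTRs as unchanged, moved the median over all tested 3′UTRs to -0.11 and that over the members to 0.22, and 31.3% of the members were then called higher and 23.1% lower, against 21.6% and 19.1% of all tested 3′UTRs. The excess of the members over the median of all 3′UTRs was 0.34 and 0.33 under these scalings, whereas the direction for a member near the median depended on the scaling. This excess was 0.18 without sham library 8 and 0.68 without the filter on low counts.

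The strongest relative enrichment was on Lsm11, whose protein belongs to the U7 particle that processes histone mRNAs. Lsm11 had 1495 and 1251 scaled counts in miR292sp, 307 and 295 in miR124sp and 456 and 400 in miR125sp, against 45.2 and 37.2 in sham, a log2 fold change of 5.05 ± 0.28 (SE) for miR292sp over sham (adjusted p = 1.73e-10). Ssh1, the gene of a phosphatase that activates the actin-severing protein cofilin, had 1565 and 1759 in miR292sp, 421 and 365 in miR124sp and 807 and 639 in miR125sp, against 43.7 and 59.1 in sham (5.02 ± 0.27, adjusted p = 1.36e-10). In both, the AGO2 groups and sham did not overlap, and miR292sp stood above either other sponge. Both miR292sp libraries lay above both sham libraries for 86.2% of all members and 76.1% of all tested 3′UTRs. For Ssh1, 48.1% of the bases were shared with another annotated 3′UTR of the file.

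Tet3, whose enzyme oxidises 5-methylcytosine in DNA, had a 3′UTR of 5669 bases (chr6:83312367-83318035, minus strand, NCBIM37) with no shared base. It had 5937 and 4877 scaled counts in miR292sp, 1812 and 1696 in miR124sp and 2767 and 2551 in miR125sp, against 215 and 181 in sham. Its log2 fold change over sham was 4.77 ± 0.19 with miR292sp, 3.14 with miR124sp and 3.75 with miR125sp (adjusted p = 1.12e-11 for miR292sp). Under TMM scaling the value with miR292sp was 3.39, so that Tet3 was called higher under both. Rnf165, a ubiquitin ligase gene, stood at 4.32 ± 0.21 with 11398 and 9591 scaled counts in miR292sp against 594 and 458 in sham.

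Of the other 4 highest, Zc3hav1l, which carries the let-7 match shown above, had 1187 and 856 scaled counts in miR292sp against 55.0 and 61.0 in sham (log2 fold change 4.14 ± 0.29). Hif1an, the gene of the hydroxylase that restrains the hypoxia factor HIF-1, had 1451 and 1226 in miR292sp against 95.7 and 75.3 in sham (3.96 ± 0.27). G3bp1, whose protein nucleates stress granules, had 1585 and 1332 in miR292sp against 100.2 and 95.3 in sham (3.90 ± 0.25). Mib1, the gene of the ubiquitin ligase that activates Notch ligands, had 9495 and 6489 in miR292sp against 568 and 616 in sham (3.76 ± 0.23). In all 4, each library of the 3 AGO2 groups lay above both sham libraries, as the plot of relative enrichment shows. Such a gap to sham was common. It was found for 76.1% of all tested 3′UTRs in miR292sp, 44.3% in miR124sp and 55.6% in miR125sp. Among all members the shares were 86.2%, 62.0% and 75.5%.

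**Figure D2:**
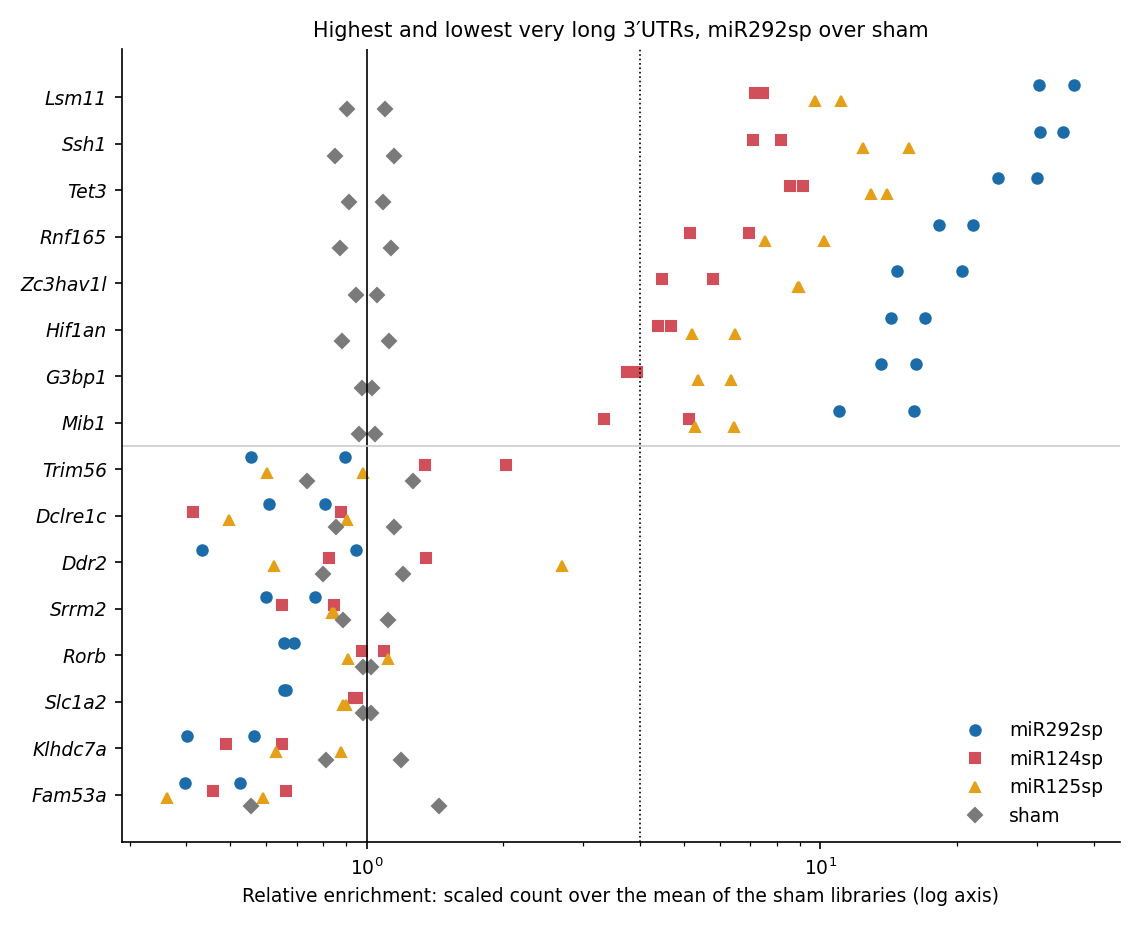
Relative enrichment of the 8 very long 3′UTRs with the highest (top) and the 8 with the lowest (bottom) log2 fold change of miR292sp over sham: scaled counts of each library over the mean of the sham libraries, on a log axis, with 1 (solid line) and 4 (dotted line) marked. Lsm11, Ssh1 and Tet3 stood apart from sham in all 6 AGO2 libraries, while Slc1a2 and Rorb were below sham in the miR292sp libraries.

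At the other end, Slc1a2 had 89502 and 88610 scaled counts in miR292sp, 126594 and 128307 in miR124sp and 119682 and 121396 in miR125sp, against 132310 and 137680 in sham. It fell by 0.60 on the log2 scale in miR292sp (SE 0.06, adjusted p = 1.68e-07), and the values in miR124sp and miR125sp were -0.08 and -0.16, both not called. Rorb, the gene of a nuclear receptor, had 1072 and 1124 in miR292sp against 1597 and 1666 in sham and fell by 0.57 (SE 0.18, adjusted p = 0.01). Srrm2, the gene of a splicing scaffold protein, had 7010 and 9029 in miR292sp against 10386 and 13071 in sham and fell by 0.55 (SE 0.15, adjusted p = 0.00468). Klhdc7a and D730040F13Rik were the other 2 that fell, with log2 fold changes of -1.05 and -0.47. Fam53a had the lowest value of the members, -1.11 ± 0.56, and did not pass the test (adjusted p = 0.0984), with 38.4 and 100.1 scaled counts in its sham libraries. Under TMM scaling Slc1a2, Rorb and Srrm2 stood at -1.97, -1.94 and -1.90.

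The study's measure of AGO2 binding was a relative enrichment above 4-fold. Among the very long 3′UTRs 120 of 355 (33.8%) passed it in miR292sp, 98 of them in each library on its own, while 27.2% of all tested 3′UTRs passed it. With miR124sp 11 members passed it, 7 of them in each library, and 2.8% of all tested 3′UTRs did. With miR125sp 22 passed it, 17 of them in each library, and 6.18% of all tested 3′UTRs did. The members' median relative enrichment was 3.02 in miR292sp, 1.38 in miR124sp and 1.65 in miR125sp, and the highest was 33.3. Under TMM scaling 5.63% of the members and 4.83% of all tested 3′UTRs passed 4-fold in miR292sp. That share was not taken under TMM scaling for miR124sp or miR125sp.

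Proteins of the miRNA machinery were among the members, and all 4 of this list rose in miR292sp, with a median log2 fold change of 2.38. For this list and those below, 78.9% of all members and 59.4% of all tested 3′UTRs rose. Tnrc6b, a GW182 gene with a 3′UTR of 11610 bases, had 11323 and 8647 scaled counts in miR292sp, 3174 and 2586 in miR124sp and 4141 and 3676 in miR125sp, against 969 and 1070 in sham (3.29 ± 0.17, adjusted p = 9.86e-11). Cnot6l, the gene of a catalytic deadenylase subunit, had 1941 and 1445 in miR292sp against 166 and 318 in sham (2.81 ± 0.31). Eif2c2, the gene of AGO2, had 5907 and 4037 in miR292sp against 1543 and 1039 in sham (1.94 ± 0.23), and Eif2c3, the gene of AGO3, 2305 and 1948 against 864 and 613 (1.52 ± 0.20). The sequence of AGO2 itself was also part of the transgene of the AGO2 groups, whether any vector reads fell on this 3′UTR was not tested, and the length in the file for it did not match the annotated span. Under TMM scaling Tnrc6b and Cnot6l were still called higher and Eif2c2 and Eif2c3 were not called.

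Chromatin regulators stood highest of the larger lists: all 7 rose, with a median of 2.55, and 5 did so under TMM scaling. Of all members 78.9% rose when scaled around Gapdh and 31.3% under TMM scaling, and of all tested 3′UTRs 59.4% and 21.6%. Besides Tet3, they included Setd7, a lysine methyltransferase gene, with 11776 and 10596 scaled counts in miR292sp, 4620 and 4085 in miR124sp and 6071 and 5480 in miR125sp, against 2031 and 1777 in sham (2.55 ± 0.14, adjusted p = 1.69e-10). Dnmt3a, a DNA methyltransferase gene, had 1013 and 773 in miR292sp against 49.0 and 121 in sham (3.40 ± 0.37), on a 3′UTR that shared all of its bases with others. Reads of this 3′UTR could thus belong to other annotated 3′UTRs.

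Among the transcription factors 11 of 13 rose and 1, Rorb, fell, with a median of 1.93, while 78.9% of all members and 59.4% of all tested 3′UTRs rose. Klf13, a Krüppel-like factor gene, had 5391 and 5068 scaled counts in miR292sp against 633 and 685 in sham (2.99 ± 0.17), and Klf7, of the same family, 2667 and 2479 against 845 and 735 (1.70 ± 0.18). Of the zinc finger protein genes 10 of 13 rose, with a median of 1.83. Zbtb20 had 45064 and 39371 in miR292sp, 24597 and 23880 in miR124sp and 28652 and 25779 in miR125sp, against 18900 and 18059 in sham, a log2 fold change of 1.19 ± 0.10, which turned to -0.18 (not called) under TMM scaling. Of the ubiquitin ligases and proteases 12 of 14 rose, with a median of 1.99, and this list, made by symbol, also held Ubn2, which is not a ubiquitin enzyme.

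Genes of synaptic signalling were spread over a wide range, where 78.9% of all members and 59.4% of all tested 3′UTRs rose. All 3 transmitter receptor genes rose: Grik3, a kainate receptor gene, with 2273 and 2097 scaled counts in miR292sp against 383 and 214 in sham (2.87 ± 0.26), Gabrb2, a GABA-A receptor gene, with 8543 and 6973 against 2437 and 2462 (1.66 ± 0.16), and Gabrg3, another, with 1522 and 1511 against 854 and 867 (0.82 ± 0.21). Under TMM scaling Grik3 was called higher, Gabrb2 was not called and Gabrg3 was called lower. Of the ion channel genes 6 of 8 rose, led in counts by Scn8a with 18117 and 17973 in miR292sp against 4211 and 4011 in sham (2.134 ± 0.12, adjusted p = 1.73e-10). Kcna1, the gene of the potassium channel Kv1.1, had 10446 and 8869 in miR292sp against 2963 and 3276 in sham (1.63 ± 0.14). Kcnh7, of the ERG potassium channels, and Cacna1e, of the R-type calcium channel, did not pass the test, with log2 fold changes of -0.26 and 0.21.

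Synaptic adhesion and scaffold genes had the lowest median of the lists that held over 2 members, 0.70. Of these 5 of 7 were called higher, against 78.9% of all members and 59.4% of all tested 3′UTRs. Homer2, a scaffold gene of the postsynaptic density, had 10547 and 7822 scaled counts in miR292sp against 1952 and 1517 in sham (2.40 ± 0.22). In contrast, Lsamp, the gene of the limbic system-associated membrane protein, had 10015 and 8627 in miR292sp, 9676 and 9001 in miR124sp and 8708 and 8688 in miR125sp, against 9051 and 8673 in sham (0.07 ± 0.12, adjusted p = 0.62). Its groups overlapped on this scale, and under TMM scaling Lsamp stood at -1.30. Of the axon guidance genes 4 of 5 rose, among them Plxna4, a semaphorin co-receptor gene, with 1862 and 1809 in miR292sp against 393 and 389 in sham (2.23 ± 0.21, 77.0% of its bases shared), while Sema5a, a semaphorin gene, had -0.13 and was not called.

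Kinases, phosphatases and their regulators formed the largest list, and 20 of 23 rose, with a median of 1.60. Of all members 78.9% rose, and of all tested 3′UTRs 59.4%. This list, made by symbol, also held genes whose products are not themselves enzymes, such as Ppp1r7, Ppp1r9a, Ppp1r12b and Cdk5rap2. Gsk3b, a kinase of Wnt and insulin signalling, had 10945 and 7407 scaled counts in miR292sp against 1698 and 1343 in sham (2.59 ± 0.23). Camk4, a calmodulin-dependent kinase gene, had 7024 and 6326 against 4698 and 4346 (0.56 ± 0.14). Of the small GTPases and their regulators 8 of 12 rose, with a median of 1.28, and of the solute carriers 9 of 12 rose and 1, Slc1a2, fell, with a median of 1.51. All 8 genes of membrane traffic rose, with a median of 2.17, such as Myo5a, the gene of a motor that carries vesicles, with 7487 and 6614 against 1246 and 1398 (2.42 ± 0.16). Of the 5 RNA-binding protein genes 4 rose, led by Celf1, a splicing regulator gene, at 2.38 ± 0.19, and Qk had 0.02.

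Under TMM scaling the medians of the lists for miRNA machinery, chromatin, transcription factors, zinc finger proteins, ubiquitin enzymes and membrane traffic stayed above 0, at 1.01, 1.18, 0.56, 0.46, 0.62 and 0.80. Those of the synaptic adhesion, RNA-binding, axon guidance and small GTPase lists turned below 0, at -0.65, -0.14, -0.07 and -0.10. The lists covered 135 of the 355 members. A share called higher near the 78.9% of all members is not particular to a list.

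Of the 8 longest 3′UTRs 7 rose in miR292sp and D730040F13Rik fell, the others being Zbtb20 and Eif2c3, given above, and those that follow. Their share that rose was near that of all members, 78.9%, while 59.4% of all tested 3′UTRs rose. Strbp (14162 bases) had 3784 and 3349 scaled counts in miR292sp against 862 and 1249 in sham (1.76 ± 0.20), and Pura (13394 bases), the gene of a protein that binds single-stranded DNA and RNA, 10153 and 8175 against 2166 and 2107 (2.10 ± 0.17). Lpp (13255 bases), the gene of a LIM protein of cell adhesions, had 1836 and 1370 against 414 and 540 (1.75 ± 0.22). Zfp704 (11776 bases) had 3717 and 3121 against 786 and 667 (2.23 ± 0.19), and Onecut2 (11855 bases), a homeobox gene, had 275 and 207 against 61.0 and 47.7 (2.14 ± 0.47). D730040F13Rik (13324 bases) had 1956 and 2031 against 3241 and 2285 and fell by 0.47 on the log2 scale. Under TMM scaling Pura and Zfp704 were still called higher, at 0.73 and 0.86, D730040F13Rik was lower, at -1.85, and the other 5 were not called. With that scaling 31.3% of all members were called higher and 23.1% lower, against 21.6% and 19.1% of all tested 3′UTRs. Of the 8 members with the most counts, Adcy1 had the highest value, with 29085 and 23416 in miR292sp, 10915 and 10669 in miR124sp and 15477 and 13318 in miR125sp, against 3353 and 3372 in sham (2.96 ± 0.13, adjusted p = 1.78e-11).

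Set against shorter 3′UTRs, the very long ones stood at the upper end of a rise that was steepest under 1000 bases. The median log2 fold change of miR292sp over sham was 0.57 for 3′UTRs under 250 bases, 0.96 from 250 to 499, 1.26 from 500 to 999, 1.41 from 1000 to 1999, 1.46 from 2000 to 2999, 1.49 from 3000 to 4999, 1.60 from 5000 to 7499 and 1.52 for the 69 of 7500 or more. The share called higher was 26.4% in the shortest bin, 72.2% from 3000 to 4999 bases, and 79.0% and 78.3% in the 2 longest. The share above 4-fold was 32.4% from 1000 to 1999 bases and 33.9% and 33.3% in the 2 longest bins, so that it hardly moved above 1000 bases. Counts were higher for longer 3′UTRs as well: the median sum over the 8 libraries was 367 under 250 bases and 5298 and 8281 in the 2 longest bins. The median CPM per unshared kilobase in miR292sp was 70.0 in the shortest bin. It was 39.8 from 1000 to 1999 bases, 35.0 from 2000 to 2999, 34.4 from 3000 to 4999, and 43.0 and 35.5 in the 2 longest bins. More counts give a test more power, and the part of depth in the shares called was not tested.

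**Figure D3:**
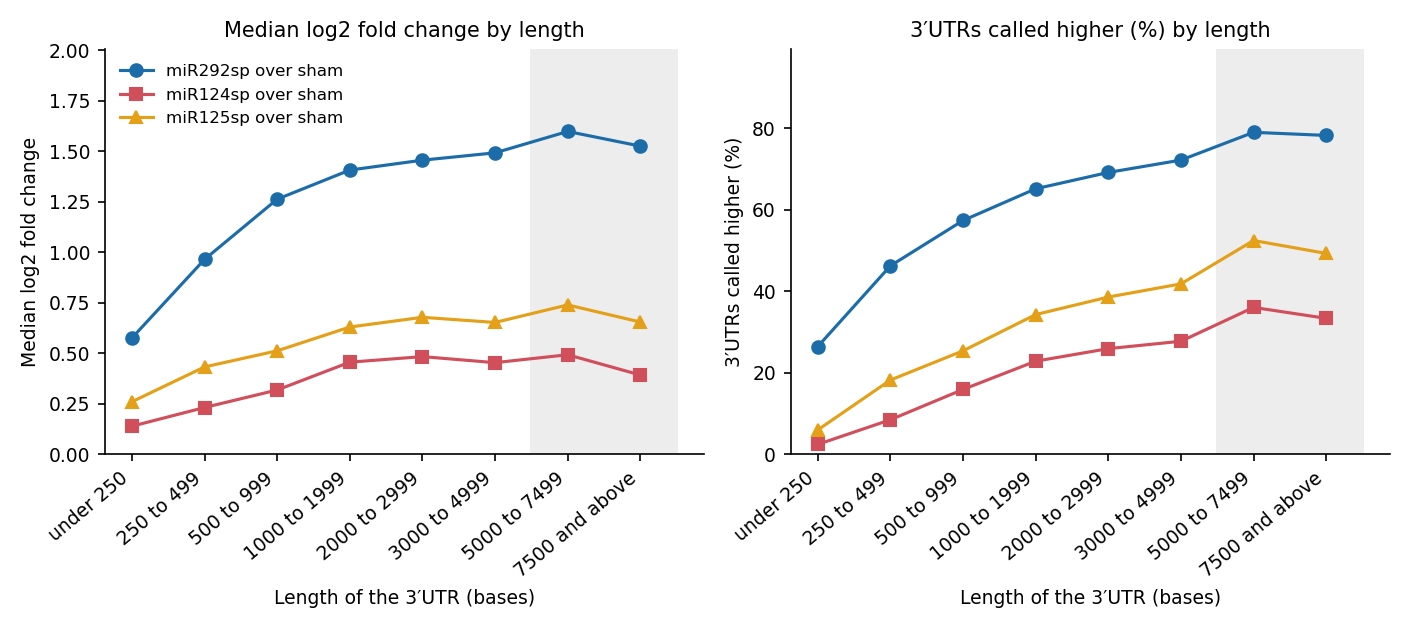
Median log2 fold change over sham (left) and percent of 3′UTRs called higher (right) in bins of 3′UTR length in bases, for the 3 AGO2 groups; the shaded bins hold the 286 and 69 very long 3′UTRs. With miR292sp the median was 0.57 in the shortest bin and 1.60 and 1.52 in the shaded bins.

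With the sponges for miR-124 and miR-125 the members stood closer to sham. In miR124sp 35.5% of the members rose over sham and 0 fell, while 19.3% of all tested 3′UTRs rose and 0.232% fell, and the median was 0.46 over the members and 0.36 over all. In miR125sp 184 rose and 0 fell, while 30.1% of all tested 3′UTRs rose and 0.317% fell, with medians of 0.72 and 0.55. Under TMM scaling 14.9% of the members were called higher and 1.41% lower in miR124sp, against 9.05% and 1.18% of all tested 3′UTRs, and 18.9% and 6.76% in miR125sp, against 12.6% and 3.83%. The members' medians under TMM scaling were 0.22 in miR292sp, 0.11 in miR124sp and 0.13 in miR125sp, closer together than when scaled around Gapdh. Over all tested 3′UTRs they were -0.11, 0.01 and -0.03. These comparisons share the sham libraries with that of miR292sp. Tet3 had the log2 fold changes given above, Adcy1 had 1.68 in miR124sp and 2.10 in miR125sp, Tnrc6b 1.50 and 1.94, and Plekhm3 2.02 and 2.34 beside 3.59 ± 0.21 in miR292sp. In each of these 4 genes the mean of the scaled counts was highest in miR292sp and lowest in miR124sp among the AGO2 groups, and the miR124sp and miR125sp libraries overlapped in Plekhm3.

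The sponges were compared directly to ask which 3′UTRs changed their place in the RISC when a miRNA was occupied. With TMM scaling, 46 of the 355 very long 3′UTRs rose and 19 fell in miR124sp against miR292sp (edgeR quasi-likelihood test, adjusted p below 0.05), while 5.1% of all tested 3′UTRs rose and 3.46% fell. In miR125sp against miR292sp 17 rose and 0 fell, while 1.18% of all tested 3′UTRs rose and 0.232% fell. The medians over the members were -0.06 and -0.05, against 0.04 and 0.03 over all tested 3′UTRs. Scaled around Gapdh, the medians over all tested 3′UTRs moved to -0.97 and -0.75, and 2 members were called higher and 71.3% lower in miR124sp, against 0.207% and 50.04% of all tested 3′UTRs, and 2 higher and 62.8% lower in miR125sp, against 0.219% and 38.2%. Slc1a2 and Rorb were the 2 called higher under both scalings in either comparison, so that for every other member called higher the call rested on the scaling.

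The number of calls rested on single libraries too. Without miR292sp library 5 or 6, 13 or 15 members were called higher in miR124sp and 0 or 2 lower, and without miR124sp library 3 or 4, 21 or 40 higher and 11 or 3 lower. In miR125sp, 1 or 3 members were called higher without miR292sp library 5 or 6, and 3 or 2 without miR125sp library 1 or 2. Between miR124sp and miR125sp no member was called by edgeR or by DESeq2, and 17 had an unadjusted p below 0.05 by edgeR; 0.0% and 0.0122% of all tested 3′UTRs were called higher and lower.

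Members that rose with miR124sp had little relative enrichment over sham in miR292sp: their log2 fold changes there ran from -0.60 to 0.76 for the 46 of miR124sp and from -0.60 to 0.19 for the 17 of miR125sp. These comparisons share the miR292sp libraries, and glial and neuronal genes were both among them. Slc1a2 had 45237 and 41352 CPM in miR124sp and 34011 and 35911 in miR125sp, against 14768 and 15286 in miR292sp, a log2 fold change over miR292sp of 1.53 ± 0.10 in miR124sp (adjusted p = 6.44e-08) and 1.22 ± 0.09 in miR125sp (adjusted p = 2.16e-06). Its sham libraries stood at 60666 and 56818 CPM, so that both sponges lay between miR292sp and sham. Slc1a2 itself makes up most of the astrocyte marker list, and without it the other 31 3′UTRs of the list summed to 8657 and 7759 CPM in miR124sp and 7039 and 6843 in miR125sp, against 3718 and 3853 in miR292sp. Under TMM scaling 8 of the 31 were called higher in miR124sp and 4 in miR125sp, and none lower. Over all tested 3′UTRs 5.1% were called higher and 3.46% lower in miR124sp, and 1.18% and 0.232% in miR125sp.

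Rorb had 568 and 572 CPM in miR124sp and 421 and 538 in miR125sp, against 177 and 194 in miR292sp (1.62 ± 0.19 and 1.37 ± 0.19, adjusted p = 0.000127 and 0.00125). Qk, which carries 3 miR-124 matches and encodes a regulator of myelin mRNAs, had 1053 and 663 in miR124sp and 771 and 799 in miR125sp, against 372 and 336 in miR292sp (1.28 ± 0.21 and 1.15). Sham stood at 732 and 688 CPM for Rorb and 996 and 808 for Qk. In both genes neither sponge overlapped miR292sp. Both miR124sp libraries lay above both miR292sp libraries for 29.6% of all tested 3′UTRs, and both miR125sp libraries for 27.6%.

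Neuronal channel and adhesion genes were also among those that rose. Kcnh7 had 1130 and 1113 CPM in miR124sp and 825 and 820 in miR125sp, against 434 and 449 in miR292sp (1.34 ± 0.16 and 0.90, adjusted p = 0.000127 and 0.00889), with sham at 1415 and 1316. Ptprt, the gene of a receptor tyrosine phosphatase of synapses, had 447 and 380 in miR124sp against 150 and 162 in miR292sp (1.40), and Tnik, a kinase gene of the postsynapse, 891 and 761 against 376 and 325 (1.24 ± 0.17). Lsamp had 3458 and 2901 against 1653 and 1488 (1.02, adjusted p = 0.000693). In total 3 of 8 ion channel genes, 3 of 7 synaptic adhesion genes and 3 of 12 solute carriers rose, the last with Slc7a11, the gene of the cystine and glutamate exchanger, at 303 and 125.8 CPM in miR124sp against 95.5 and 64.8 in miR292sp (1.42 ± 0.39, adjusted p = 0.0332). Of all members 13.0% rose in miR124sp under TMM scaling, and of all tested 3′UTRs 5.1%. Scaled around Gapdh, 0 ion channel genes, 0 adhesion genes and 1 solute carrier, Slc1a2, were called higher. Trim56, a ubiquitin ligase gene, had the largest value, 2.21 ± 0.54, on few counts: 15.5 and 21.1 CPM in miR124sp against 4.76 and 3.09 in miR292sp.

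The 19 members that fell with miR124sp had log2 fold changes of 2.31 to 5.05 in miR292sp over sham, again with the miR292sp libraries in both comparisons. Lsm11 had 110 and 95.2 CPM in miR124sp and 130 and 118 in miR125sp, against 247 and 216 in miR292sp, and fell by 1.17 on the log2 scale in miR124sp (SE 0.24, adjusted p = 0.00911). Ssh1 had 150 and 118 in miR124sp and 229 and 189 in miR125sp, against 258 and 303 in miR292sp, and fell by 1.07 (SE 0.23, adjusted p = 0.0122). Foxk1, a forkhead transcription factor gene, had 138 and 139 in miR124sp and 265 and 221 in miR125sp, against 323 and 263 in miR292sp, and fell by 1.08 (SE 0.21, adjusted p = 0.00674). The sham libraries of Foxk1, at 154 and 151 CPM, lay close to its miR124sp libraries, whereas those of Lsm11, at 20.7 and 15.3, and of Ssh1, at 20.0 and 24.4, lay below both sponges.

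Dcp2, the decapping enzyme gene, had 188 and 202 CPM in miR124sp against 454 and 320 in miR292sp (-0.99 ± 0.30, adjusted p = 0.05, just under the threshold), and G3bp1 138 and 118 against 262 and 230 (-0.94 ± 0.23). Of the 4 genes of the miRNA machinery list 1 fell, Tnrc6b at -0.77 (adjusted p = 0.0156), while 5.35% of all members and 3.46% of all tested 3′UTRs fell. Slc43a2, an amino acid transporter gene, had 104 and 136 against 246 and 254 (-1.06 ± 0.24). Dnajc5, the gene of a chaperone of synaptic vesicles, had 218 and 146 against 340 and 322 (-0.86), and Bri3bp 213 and 139 against 355 and 293 (-0.88). In each of these the miR124sp libraries lay below both miR292sp libraries, as they did for 32.4% of all members and 28.6% of all tested 3′UTRs. Scaled around Gapdh, the values of the 8 members with the largest fall ran from -2.19 for Lsm11 to -1.88 for Dnajc5.

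**Figure D4:**
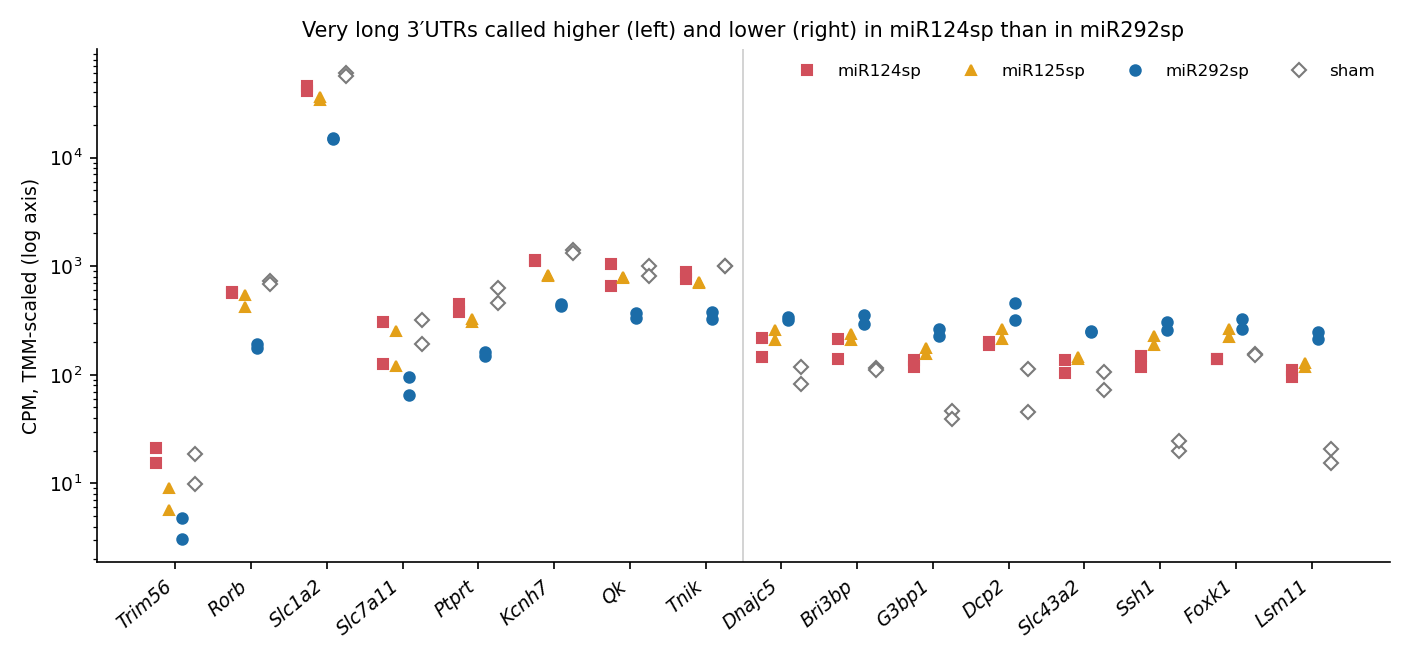
CPM (TMM-scaled, log axis) in each RIP-seq library of the 8 very long 3′UTRs with the largest rise (left) and the 8 with the largest fall (right) in miR124sp against miR292sp. On the left the sham libraries lay above the miR124sp libraries for Slc1a2 and Rorb, and on the right Lsm11 and Ssh1 had their lowest values in sham.

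Of the 17 members that rose with miR125sp, the largest change was that of Rbms3, an RNA-binding protein gene, with 162 and 118 CPM in miR125sp against 55.9 and 46.3 in miR292sp (1.46 ± 0.29, adjusted p = 0.018). Pvrl3, the gene of the adhesion molecule nectin-3, had 114 and 123 against 61.5 and 42.2 (1.19 ± 0.28, adjusted p = 0.0437). Egfr, the epidermal growth factor receptor gene, had 149 and 145 against 71.2 and 68.5 (1.08 ± 0.24, adjusted p = 0.0294), and Srrm2 had 2785 and 2929 against 1157 and 1558 (1.07 ± 0.16, adjusted p = 0.00209). Rorb, Slc1a2, Qk and Ptprt completed the 8 largest. Since both sponge comparisons share the miR292sp libraries, a gene in both is no second observation.

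Seed matches were counted on the transcript strand in the 342 members whose length matched the annotation. A miR-124 match (GTGCCTT) was present in 152 of them (44.4%), against 25.8% of tested 3′UTRs of 2000 to under 5000 bases and 15.5% of all other tested 3′UTRs. Per kilobase, however, the members held 0.0926 miR-124 matches against 0.114 in the other tested 3′UTRs. A miR-125 match (CTCAGGG) was present in 147 (43.0%, against 15.2%), with 0.0922 per kilobase against 0.113, and a let-7 match (CTACCTC) in 118 (34.5%, against 10.4%), with 0.0686 against 0.0731. A match was thus present in more of the members, but per kilobase they held fewer than the other tested 3′UTRs, for let-7 by a small margin. The 3′UTRs of 2000 to under 5000 bases held 0.104 miR-124, 0.105 miR-125 and 0.0665 let-7 matches per kilobase. For let-7 the members therefore lay slightly above this next length class. The ratio to the other tested 3′UTRs was 0.81 for miR-124 and 0.82 for miR-125, and nearer to equal, 0.94, for let-7. Their median GC content was 42.2%, against 44.4% in the others.

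Members were also set side by side by their number of matches, as a description over 3′UTRs. For miR-124, the median log2 fold change of miR292sp over sham was 1.39 for the 190 without a match, 1.63 for the 107 with 1, 1.82 for the 45 with 2 or more and 2.18 for the 36 whose match also had an A opposite base 1 (8-base match). For miR124sp over miR292sp the same 4 medians were 0.01, -0.09, -0.21 and -0.43. For miR-125 the medians of miR292sp over sham were 1.41 without, 1.69 with 1 and 1.77 with 2 or more matches, and those of miR125sp over miR292sp -0.02, -0.10 and -0.15, but the 49 members with an 8-base miR-125 match had medians of 1.67 and -0.05, so that the longer match did not continue this order. For let-7, the medians of miR292sp over sham were 1.47, 1.64 and 2.17, and 1.93 for the 46 with an 8-base match. The median lengths of these groups were similar, from 5818 to 6224 bases for miR-124. The comparisons over sham and between sponges share the miR292sp libraries, with opposite sign. A group that is high over sham is thereby drawn lower between sponges, and the part of the matches in these orders was not tested. Plekhm3, with 5 miR-124 matches, had 4637 and 3837 scaled counts in miR292sp, 1522 and 1342 in miR124sp and 2075 and 1507 in miR125sp, against 363 and 342 in sham, and -0.55 for miR124sp over miR292sp, which did not pass the test (adjusted p = 0.0922). Ddx19b, with 4 miR-125 matches, had 482 and 404 in miR292sp, 165 and 176 in miR124sp and 184 and 163 in miR125sp, against 78.3 and 80.1 in sham.

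The mRNA of the same genes was measured in other mice, without a pulldown, and took no part in choosing them. In GFP.miR124sp mice 88 of the 297 tested genes with a very long 3′UTR rose and 9 fell against their GFP mice (edgeR quasi-likelihood test, adjusted p below 0.05), while 12.6% of all tested genes rose and 10.7% fell. The median log2 fold change was 0.17 over these genes and -0.01 over all. The count of genes that rose was 21 without GFP mouse 15, 26 without miR124sp mouse 2 and 53 without miR124sp mouse 14, 68 to 107 without each of the others, and that of genes that fell was between 1 and 18. In GFP.miR125sp mice 0 of 293 genes rose and 1, Bbx, fell, while 0.0554% of all tested genes rose and 0.15% fell.

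The GFP mice of the 2 experiments differed on these genes. The genes with a very long 3′UTR took 4.33%, 4.45% and 4.14% of the mRNA counts in miR124sp mice, against 3.72%, 3.95% and 3.92% in their GFP mice. They took 4.34%, 4.29% and 4.22% in miR125sp mice, against 4.35%, 4.49% and 4.31% in theirs. The GFP mice of the miR124sp experiment thus had the lowest shares. The shares were taken over 297 genes in that experiment and 293 in the other, and which group was displaced cannot be told from separate experiments. In a fit over all 12 mice, the change in miR124sp mice minus that in miR125sp mice was called above 0 for 71 of 299 such genes and below 0 for 4, while 7.42% and 7.06% of all tested genes were called in these directions. In miR124sp mice against their GFP mice, 14 of 22 oligodendrocyte marker genes rose and 0 fell, and 12 of 31 neuron marker genes rose and 2 fell. In the same comparison 13 of 26 astrocyte marker genes fell and 0 rose, while 12.6% of all tested genes rose and 10.7% fell. These were whole hippocampi, and the part of cell makeup in the results was not tested.

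By length of the 3′UTR, the median log2 fold change of mRNA in miR124sp mice was -0.10 for genes with a 3′UTR under 250 bases, -0.06 from 250 to 499, -0.02 from 500 to 999, 0.05 from 1000 to 1999, 0.08 from 2000 to 2999, 0.13 from 3000 to 4999, and 0.17 and 0.18 in the 2 longest bins. In miR125sp mice it was 0.02 in the shortest bin and -0.04 and -0.06 in the 2 longest. The share of genes that rose in miR124sp mice was 9.22% in the shortest bin and 31.1% and 23.7% in the 2 longest.

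The largest rise was that of Syt2, the gene of a fast calcium sensor of vesicle release, with 74.7, 70.0 and 27.4 CPM in miR124sp mice against 9.51, 8.19 and 11.1 in their GFP mice (log2 fold change 2.59 ± 0.32, adjusted p = 0.00368). In miR125sp mice it had 37.2, 29.9 and 28.4 CPM against 25.5, 26.7 and 22.4. Kcnh7 had 50.4, 51.6 and 26.3 in miR124sp mice against 15.5, 14.0 and 16.0 (1.50 ± 0.22, adjusted p = 0.00412). Rims3, the gene of a presynaptic active zone protein, had 53.5, 44.3 and 18.7 against 15.6, 13.8 and 15.8 (1.38 ± 0.30, adjusted p = 0.012). In these 3 genes the third value, of miR124sp mouse 9, lay nearest to the GFP mice, and no miR124sp mouse overlapped them. Of the 12 named calls of this experiment 6 passed without GFP mouse 15, without miR124sp mouse 14 or without miR124sp mouse 2, and Rims3 was not called without GFP mouse 15 or miR124sp mouse 2.

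Cntn2, the gene of a contactin of axons and myelin, had 349, 280 and 223 CPM in miR124sp mice against 142, 143 and 135 in their GFP mice (1.02 ± 0.14, adjusted p = 0.00378). Dclk1, a microtubule-binding kinase gene, stood at 1.00 ± 0.16 and Cacnb4, a calcium channel subunit gene, at 0.97 ± 0.28, with 1.99, 1.91 and 1.71 CPM in miR124sp mice against 0.667, 1.26 and 1.01 in their GFP mice. Plekhm3 had 90.0, 93.9 and 80.1 against 56.1, 62.7 and 65.4 (0.52 ± 0.09, adjusted p = 0.00497), and Dcp2 160, 178 and 143 against 114, 125 and 126.4 (0.40 ± 0.09, adjusted p = 0.0133). All 3 transmitter receptor genes and 5 of 7 ion channel genes rose, as did 6 of 12 solute carriers and 0 of 11 zinc finger protein genes. Of all tested genes with a very long 3′UTR 29.6% rose, and of all tested genes 12.6%. These lists are small and were chosen with earlier results known.

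Ntrk2, the gene of the BDNF receptor TrkB of neurons and astrocytes, fell, with 406, 412 and 421 CPM in miR124sp mice against 547, 631 and 527 in their GFP mice (-0.46 ± 0.09, adjusted p = 0.00729). 6330403A02Rik had 803, 844 and 1006 against 1116, 1340 and 1183 (-0.46 ± 0.11, adjusted p = 0.019). Prex2, the gene of a Rac activator on the astrocyte list, had 74.5, 87.9 and 79.5 against 96.7, 108.5 and 95.8 (-0.32, adjusted p = 0.0253). None of these groups overlapped. Bbx, an HMG-box gene, had 84.2, 83.1 and 87.2 CPM in miR125sp mice against 103, 104 and 102 in their GFP mice (-0.28 ± 0.05, adjusted p = 0.043).

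**Figure D5:**
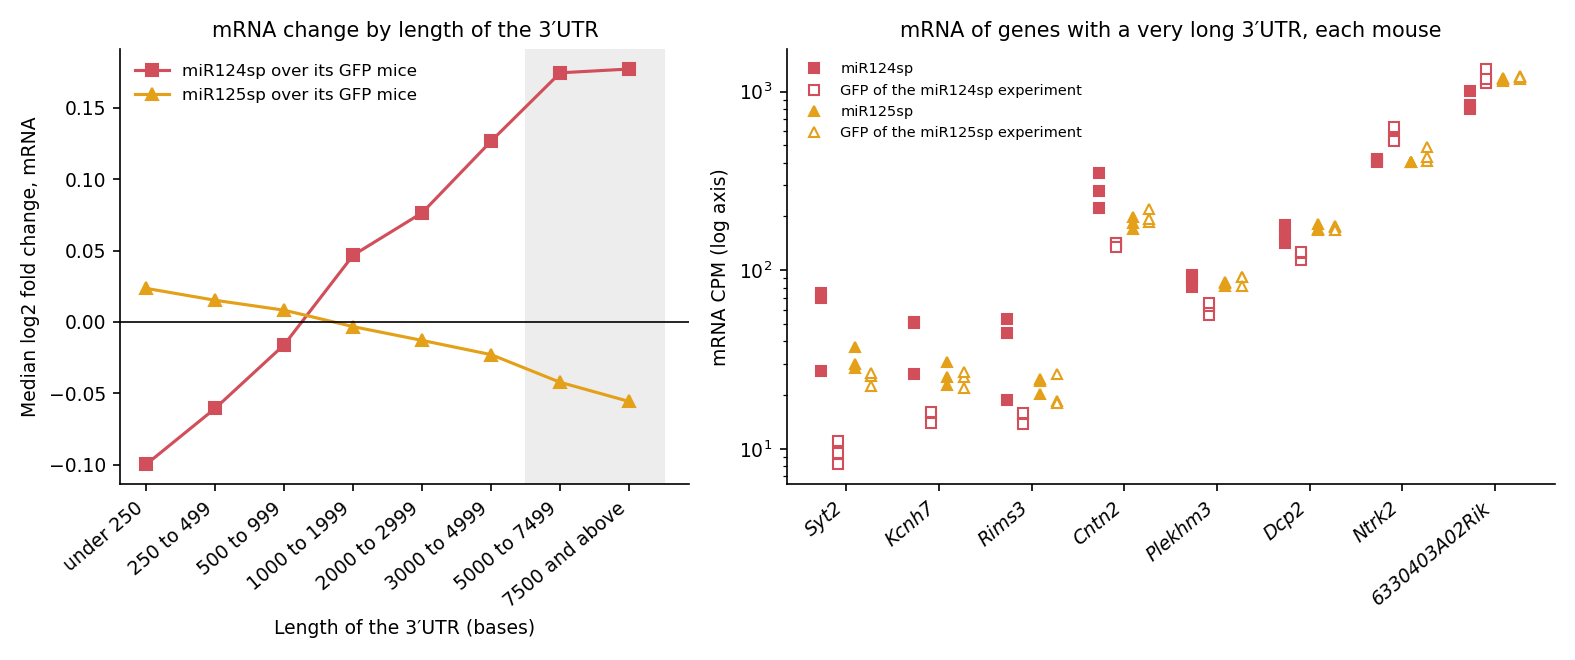
Left, median log2 fold change of hippocampal mRNA over the GFP mice of the same experiment by length of the 3′UTR in bases, with the very long bins shaded; right, mRNA CPM (log axis) of 8 genes with a very long 3′UTR in each of the 12 mice. The miR124sp medians were 0.17 and 0.18 in the shaded bins, and Syt2 had 27.4 to 74.7 CPM in miR124sp mice and 8.19 to 11.1 in their GFP mice.

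Set beside the RIP-seq, 13 of the 88 genes whose mRNA rose in miR124sp mice were also higher and 2 lower in the AGO2 precipitates of miR124sp against miR292sp. Of the 200 genes not called in mRNA 24 were higher and 16 lower there, and 13.0% and 5.35% of all members were, so that the share that was higher lay near that of the members at large. Members with a miR-124 match did not stand apart in mRNA from those without: 41 of 128 rose with a match, median 0.18, and 45 of 160 without, median 0.17. Plekhm3, with its 5 matches, rose in mRNA and had a value below 0 in the AGO2 precipitate of miR124sp, while Kcnh7, with 1, rose in both. These are different mice and different vectors, and no test joined the 2 assays.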

How the data were processed

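The RIP-seq files held the authors' deposited counts, whole-number read counts per annotated 3′UTR with its length. Per the paper's methods the libraries were polyA-selected, sequenced with single reads of 50 bases and mapped to mm9, while the submitters' processing notes name STAR, edgeR and mm10, and no source used here names the program that counted reads in 3′UTRs. The mRNA files held deposited counts per RefSeq transcript, which were summed per gene symbol (0.849% of the counts had no symbol). The unit of all files was counts. No source used here says how reads on bases shared by several annotated 3′UTRs were assigned, and such entries are uncertain.

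Gene names, coordinates and 3′UTR bases came from GENCODE M1 on NCBIM37 (mm9), since the lengths of 82.7% of all 3′UTRs matched it, 342 of the 355 members included, and miRNA sequences from RefSeq (GRCm38.p6). Mature miR-124 and miR-292 were not used here. All 3′UTRs with 10 or more counts in each of the 8 libraries were fitted together, the 4 groups sharing 1 estimate of the spread, with edgeR 4.0.16 (glmQLFit, glmQLFTest) in R 4.3.3 and Benjamini-Hochberg adjustment over all 8203. Against sham the library sizes were set by the mean of Gapdh and the 50 3′UTRs on either side of it in the ranking of miR292sp over sham (6 of these 3′UTRs are members), and between sponges by TMM. SE is the log2 fold change over the root of F. For mRNA, filterByExpr and TMM were applied to each experiment of 6 mice, and a fit over all 12 mice tested the difference between the sponge effects. edgeR's step was tested on simulated counts with known changes. Python 3.11.15, pandas 2.3.3 and matplotlib 3.10.9 were used for the rest.

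The members and lists were chosen with earlier results of these data known. Members were named by rule: the 8 longest, the 8 with the most counts, the 8 highest and 8 lowest of miR292sp over sham, up to 8 called in each direction between sponges, up to 4 with the most counts per list, the 4 with the most seed matches per kilobase for each of 3 miRNAs, up to 6 called in each direction per mRNA experiment, the 3 nearest to the length limit on either side, Gapdh and Slc1a2. Outside it, Dnmt3a and the 5 3′UTRs that failed through sham were chosen after their values were seen. Alternatives were the other scaling, DESeq2 1.42.0 size factors and test, no filter on low counts, only the libraries compared, each library left out, limits of 4000 and 7500 bases, seed matches with an A opposite base 1, and the longest 3′UTR of each gene. Members with under 10% shared bases, and genes with 1 RefSeq entry, were added after seeing the data.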

Additional observations from a re-analysis of the deposited data

Results flagged for a closer look

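The effect of the sponge on mRNA differed between the 2 experiments for a part of the genes with a very long 3′UTR. In a fit over all 12 mice, the change in miR124sp mice over their GFP mice, minus the change in miR125sp mice over theirs, was above 0 for 71 of 299 such genes and below 0 for 4 at an adjusted p below 0.05 (edgeR quasi-likelihood test), while 7.42% and 7.06% of all tested genes were called in these directions. The difference was 2.20 ± 0.39 (log2, SE) for Syt2 (adjusted p = 0.00288), 1.42 for Kcnh7 (adjusted p = 0.00526), 1.124 for Cntn2 (adjusted p = 0.00149) and 1.09 for Dclk1 (adjusted p = 0.0178). It was 0.46 ± 0.08 for Bbx (adjusted p = 0.00204), which fell in miR125sp mice. Below 0 were Ntrk2 with -0.34 (adjusted p = 0.0452), 6330403A02Rik with -0.44 (adjusted p = 0.0273) and 2900064A13Rik with -0.29 (adjusted p = 0.0336). For Syt2 the GFP mice stood at 9.51, 8.19 and 11.1 CPM in the miR124sp experiment and at 25.5, 26.7 and 22.4 CPM in the miR125sp experiment, so that the GFP mice differed as well as the sponge mice. Experiment and sponge cannot be told apart.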

How the results depend on the processing

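Shares of the very long 3′UTRs called are given in percent. Against sham, TMM scaling, DESeq2 size factors and the DESeq2 test gave 31.3, 32.4 and 33.2 higher (78.9 as reported) and 23.1, 22.5 and 23.1 lower (1.41) for miR292sp; 14.9, 13.2 and 17.5 higher (35.5) and 1.41, 2.25 and 2.82 lower (0) for miR124sp; and 18.9, 18.0 and 19.2 higher (51.8) and 6.76, 7.32 and 8.45 lower (0) for miR125sp. TMM and DESeq2 scaling both centre the libraries on all 3′UTRs. Under these 3 settings the values for miR292sp over sham turned to -0.18, -0.16 and -0.16 for Zbtb20, -1.30, -1.27 and -1.27 for Lsamp and -0.070, -0.046 and -0.046 for 6330403A02Rik, and Lsamp had -0.039 without miR292sp replicate 5. Between sponges scaling around Gapdh gave 0.563 higher (13.0) and 71.3 lower (5.35) for miR124sp and 0.563 higher (4.79) and 62.8 lower (0) for miR125sp over miR292sp. The DESeq2 test gave 10.7 lower for miR124sp, and 8.17 higher and 1.69 lower for miR125sp. Without a filter on low counts 8.17 were higher and 13.0 lower for miR124sp over miR292sp, 2.54 lower for miR125sp over miR292sp and 0.282 lower for miR124sp over sham. With only the 4 libraries compared 8.17 were lower for miR124sp over miR292sp, 10.4 higher and 4.23 lower for miR125sp over miR292sp, and 0.282 lower for miR124sp and for miR125sp over sham. The excess of the members' median over that of all 3′UTRs became 0.68 (0.34) for miR292sp over sham, 0.32 (0.17) for miR125sp over sham and -0.21 (-0.08) for miR125sp over miR292sp without the filter. At 7500 bases 2.90 were lower for miR292sp over sham, 1.45 lower for miR124sp and 8.70 higher for miR125sp over miR292sp; at 4000 bases 0.43 were lower for miR125sp over sham and 0.143 over miR292sp. The cause of these changes was not tested.

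In mRNA, 4.75 (3.03) fell without a filter and 1.70 at 7500 bases in miR124sp mice. In miR125sp mice 0.301 (0) rose and 2.41 (0.341) fell without a filter, 2.39 fell with the DESeq2 test, 0.52 at 4000 and 0 at 7500 bases. The mean share of counts without Slc1a2 was 13.2 (14.5) in miR292sp, 14.0 (17.6) in miR124sp and 13.6 (16.6) in miR125sp, against 14.2 (19.4) in sham, and 5.63 (33.8) passed 4-fold under TMM.

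With each library or mouse left out in turn, 70.4 to 77.5 were higher and 0.282 to 1.41 lower for miR292sp, 23.7 to 32.4 and 0 to 0.282 for miR124sp and 34.9 to 45.1 and 0 to 0.282 for miR125sp over sham; 3.66 to 11.3 and 0 to 3.10 for miR124sp and 0.282 to 0.845 and 0 for miR125sp over miR292sp; and 7.07 to 36.0 and 0.337 to 6.06 for mRNA in miR124sp and 0 to 0.683 in either direction in miR125sp mice. The excess of the median ranged over 0.18 to 0.42, -0.06 to 0.24, 0.06 to 0.21, -0.24 to 0.10, -0.20 to 0.02, 0.15 to 0.21 and -0.05 to -0.03 in the same order, and -0.15 to 0.16 for miR124sp over miR125sp, where 0 were called. Of the 16 named calls of miR124sp over miR292sp 6 to 12 passed with a library left out, and 1 to 3 of the 8 of miR125sp. With 1 library left in a group, that library was assumed to vary like the others. Bbx was not called in miR125sp mice without GFP mouse 14 or 4, or any of the 3 sponge mice. Over the named members 474 alternatives kept direction and call, 124 lost the call, 13 gained it and 10 turned direction. The alternatives added after seeing the data moved none of the shares by over 1.5 times. No paired analysis was possible because the groups compared share no replicate numbers.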
